A study of Schizophyllum commune with 6 samples.

Results

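In 77 of 14652 gene models of the split-gill mushroom Schizophyllum commune, expression in wild-type strain 12-43 lay between that in a dhc2 knockout and that in wild type E6, at least 2-fold away from each. In 40 models the order was dhc2 knockout over 12-43 over E6, and in 37 it was E6 over 12-43 over the knockout. The models were chosen on RPKM, read numbers divided by the length of the model and the depth of the library. The lower library of the highest group had to reach 10 RPKM and 2 times the higher 12-43 library, and the lower 12-43 library had to reach 2 times the higher library of the lowest group. Models at 0 in both E6 libraries, models whose group means plus 0.5 RPKM were within 2-fold at either step, and 2 pheromone models, 251504 and 17250, were left out. All 6 libraries entered this choice, so the graded levels are a description of the chosen models and no test of them is given.

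The samples were mycelium of plates of CYM medium kept at 28 °C, grown for 3 days on cellophane, with 2 libraries in each group, and nothing in the labels says that the libraries of a group came from separate cultures. The wild types were 12-43 (mating type loci A3,5;B2,2) and E6 (A4,6;B2,1). The knockout, labelled delta_dhc2, lacks dhc2, which encodes part of the dynein heavy chain, and has the loci A3,5;B2,2, as 12-43 does. The strain labels call all samples monokaryons, whereas the growth protocol speaks of a mating interaction, and the tables used here do not name the model of dhc2 itself.

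Dynein is a motor protein that moves along microtubules, and in mushroom-forming fungi it helps to move nuclei through the hyphae. Mating in S. commune depends on the A locus, with homeodomain proteins, and the B locus, with pheromones and their receptors. Hydrophobins are small proteins that fungi secrete and that make aerial surfaces water-repellent. No member carries a gene symbol: 19 of the 77 matched a locus tag of the RefSeq gene table for strain H4-8 (assembly Schco3), all of them without a symbol, so that members are given by model identifier and no role can be stated for them.

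The depth behind the values was 8769918 to 14372979 reads per library, the denominator solved from the steps of the RPKM. The quality reports of the reads listed the 5-base sequence GAAGA as enriched in 12-43 replicate 1 and both knockout libraries, and did not list it in 12-43 replicate 2 and both E6 libraries. The 12-43 libraries thus lie on opposite sides of this split, and the split between the knockout and E6 cannot be told apart from the strains. The receptor gene bbr2 carries in its name the second B specificity, and by their labels 12-43 and the knockout differ from E6 in that part of the locus. It had 503 and 207 reads in 12-43, 719 and 729 in the knockout, and 1 and 3 in E6.

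The 40 models in the order knockout over 12-43 over E6 make up 0.273% of all models. Their library values ranged from 12.45 to 1261 RPKM in the knockout (median 67.5), from 2.92 to 599.8 RPKM in 12-43 (median 16.8) and from 0 to 106.6 RPKM in E6 (median 4.64). The median member was 3.19-fold higher in the knockout than in 12-43 and 3.21-fold higher in 12-43 than in E6. From knockout to E6 the median span was 12.9-fold. Taking group means plus 0.5 RPKM, the span was at least 16-fold in 14 members and under 8-fold in 11. In 11 members the knockout mean was at least 100 RPKM and in 16 it was under 50 RPKM. The count rests on both 12-43 libraries: without 12-43 replicate 1 or 2, 65 or 62 models met the rule. In whole mycelium, fewer hyphae of a kind and less RNA per hypha cannot be told apart, here and in all results that follow.

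**Figure D1:**
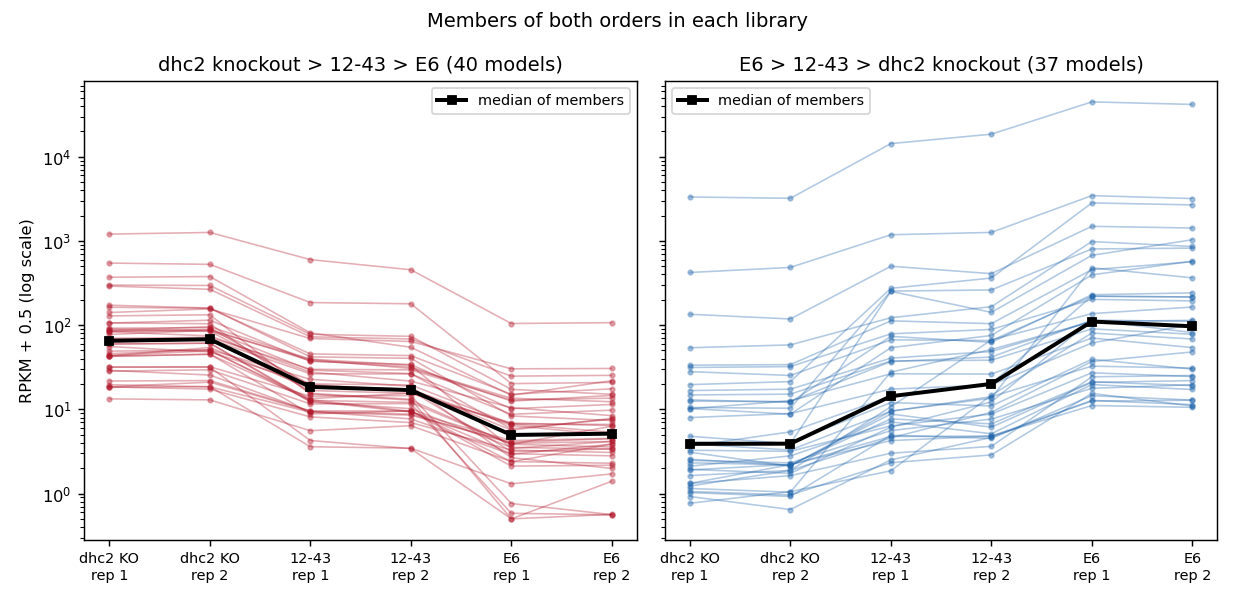
RPKM plus 0.5 (log scale) of every member in each of the 6 libraries, for the 40 models highest in the knockout (left) and the 37 highest in E6 (right); thin lines are models and the black line is their median. The E6-highest set reaches higher levels, up to 44855 RPKM, and holds models whose 12-43 libraries differ visibly.

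The most abundant of the 40 was model 1114281. It was at 1206 and 1261 RPKM in the knockout, 599.8 and 454.4 RPKM in 12-43, and 104.1 and 106.6 RPKM in E6. It ranked 94 and 90 among all models in the knockout libraries and 1726 and 1731 in the E6 libraries. This model was also among the closest to the 2-fold limit, since its 12-43 libraries differed 1.32-fold and the higher one was 2.01-fold below the lower knockout library.

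Next in level came model 86311, at 545.6 and 526.9 RPKM in the knockout, 185.0 and 178.9 RPKM in 12-43, and 19.7 and 20.4 RPKM in E6. Its lower step was the larger: 12-43 was 9.08-fold over E6, and the knockout 2.95-fold over 12-43. Model 1123577 had the reverse shape, at 370.5 and 377.1 RPKM in the knockout, 80.5 and 54.1 RPKM in 12-43 and 14.2 and 21.4 RPKM in E6, with steps of 5.56-fold and 3.78-fold. Model 1135605 was close to even, with means of 297 ± 1.99, 75.2 ± 2.93 and 15.7 ± 1.53 RPKM in the knockout, 12-43 and E6 (SD of 2 libraries each). In the set as a whole the step above 12-43 was the larger in 16 members and the step below it in 24, as folds of group means. With 0.5 RPKM added to the means the split was 20 and 20.

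The steepest rises from 12-43 to the knockout were those of model 1155753 and model 1161134. Model 1155753 was at 14.7 and 12.4 RPKM in 12-43, 128.2 and 132.3 RPKM in the knockout and 3.34 and 5.80 RPKM in E6, 9.63-fold higher in the knockout than in 12-43. Model 1161134 had 62 and 30 reads in 12-43, 529 and 506 in the knockout, and 0 and 1 in E6. Relative to the denominators, 12-43 was 89.6 times E6 for this model (exact 95% interval from the counts, 15.7 to 3580). An interval of this kind covers counting error only, and its width comes from the single E6 read.

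Models 1313697 and 1164524 also had an E6 level close to 0, with a smaller step above 12-43. Model 1313697 was at 27.9 and 29.0 RPKM in the knockout and 11.1 and 11.2 RPKM in 12-43, and had 1 read in each E6 library. Relative to the denominators, its ratio of 12-43 to E6 was 163 (exact 95% interval 44.7 to 1350). Model 1164524 was at 31.2 and 31.6 RPKM in the knockout, 13.8 and 14.1 RPKM in 12-43, and 0.261 and 0.0616 RPKM in E6. Both therefore had a knockout level a little over 2 times that of 12-43, 2.55-fold and 2.25-fold, above an E6 level that is nearly 0. Whether low E6 reads come from lower expression or from E6 sequence that differs from the gene models was not tested.

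Model 1201231 was at 45.4 and 50.6 RPKM in the knockout, 22.3 and 18.3 RPKM in 12-43, and 2.17 and 1.49 RPKM in E6. Model 238186 was at 86.3 and 95.2, 39.0 and 32.9, and 2.93 and 3.66 RPKM in the same groups. In both the lower step was the larger, at 11.1-fold and 10.9-fold. As folds of group means 5 members had both steps at 4-fold or more, 4 with 0.5 RPKM added, and model 1188937 was among them on both scales: 84.6 and 84.2 RPKM in the knockout, 19.3 and 16.1 RPKM in 12-43, and 2.65 and 2.89 RPKM in E6.

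**Figure D2:**
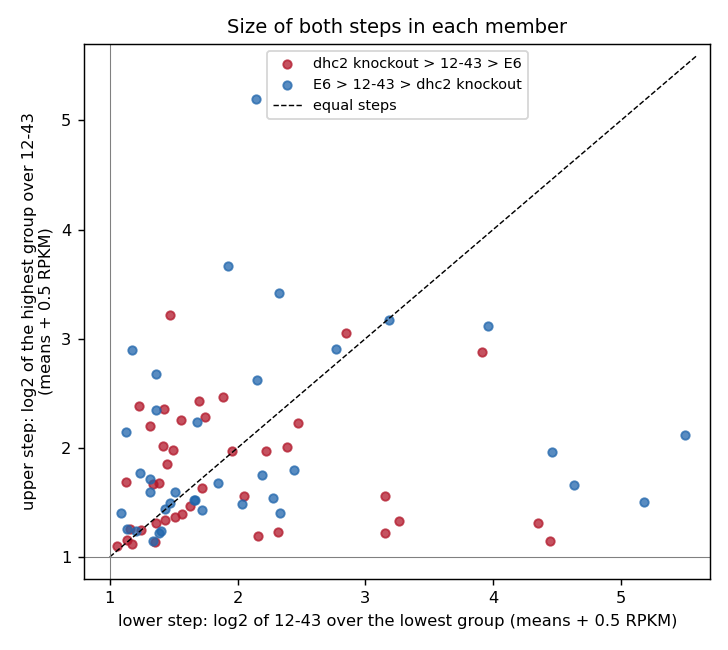
Each point is a member, with the log2 of 12-43 over the lowest group on the x axis and the log2 of the highest group over 12-43 on the y axis (group means plus 0.5 RPKM); the dashed line marks equal steps and the grey lines the 2-fold limit. Most members lie near the lower left corner, and both sets have members far to either side of the line.

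One of the 40 lies within the B mating-type locus. Model 60526, with a coding length of 171 nt, is the next gene after the bbp2 pheromone copy 251507 in the RefSeq table and stands between that copy and the bbp2 copy 17248. It had 260 and 245 reads in the knockout, 36 and 19 in 12-43, and 0 and 2 in E6, which is 105.8 and 103.4 RPKM, 14.98 and 12.7 RPKM, and 0 and 0.899 RPKM. The knockout was thus 7.57-fold over 12-43. Relative to the denominators, the ratio of 12-43 to E6 was 26.8 (exact 95% interval 7.07 to 227).

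The 4 models that met both steps in this order and were left out are all bbp2 pheromone genes of the same stretch. The gene bbp2-2 was at 82.6 and 75.4 RPKM in the knockout and 13.7 and 10.9 RPKM in 12-43, with 0 and 1 read in E6. The gene bbp2-1 was at 70.9 and 69.6 RPKM in the knockout and 30.1 and 27.8 RPKM in 12-43, with no read in E6. The bbp2 copy 251507 was at 50.8 and 43.5 RPKM in the knockout and 15.2 and 15.4 RPKM in 12-43, again with no read in E6, and bbp2-8 at 26.4 and 23.8 against 4.54 and 2.02 RPKM, with 0 and 3 reads in E6. These genes, like bbr2, carry the second B specificity in their names. So does bbp2-6 of the same stretch, which was highest in E6, at 4.21 and 8.34 RPKM (10 and 28 reads), against 0.827 and 1.33 RPKM in 12-43 and 2.97 and 5.03 RPKM in the knockout. A count of 0 reads in a library allows up to 3 reads.

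Other genes of the stretch did not all follow this order. The receptor-like gene brl1 did, with 12.8 and 12.4 RPKM in the knockout, 6.75 and 4.95 RPKM in 12-43 and 2.02 and 2.45 RPKM in E6, short of 2-fold at the upper step between libraries. The pheromone gene bap3-3 did so too, at 93.9 and 103.4, 21.5 and 18.4, and 13.0 and 8.41 RPKM, short of 2-fold below 12-43. The receptor gene bar3 ran the other way, with 20.3 and 18.1 RPKM in E6, 11.8 and 10.1 RPKM in 12-43 and 8.99 and 7.94 RPKM in the knockout. Both bar3 and bap3-3 carry a 3 in their names, which the labels list for the B locus of no strain. Whether reads on these models come from these genes or from related ones was not tested. Model 1160054, just past bbp2-6, was at 29.4 and 42.1 RPKM in E6 and at 2 reads in each of the other 4 libraries. Pheromone genes are short and belong to a family, so reads shared between near-identical copies make any single copy uncertain.

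**Figure D3:**
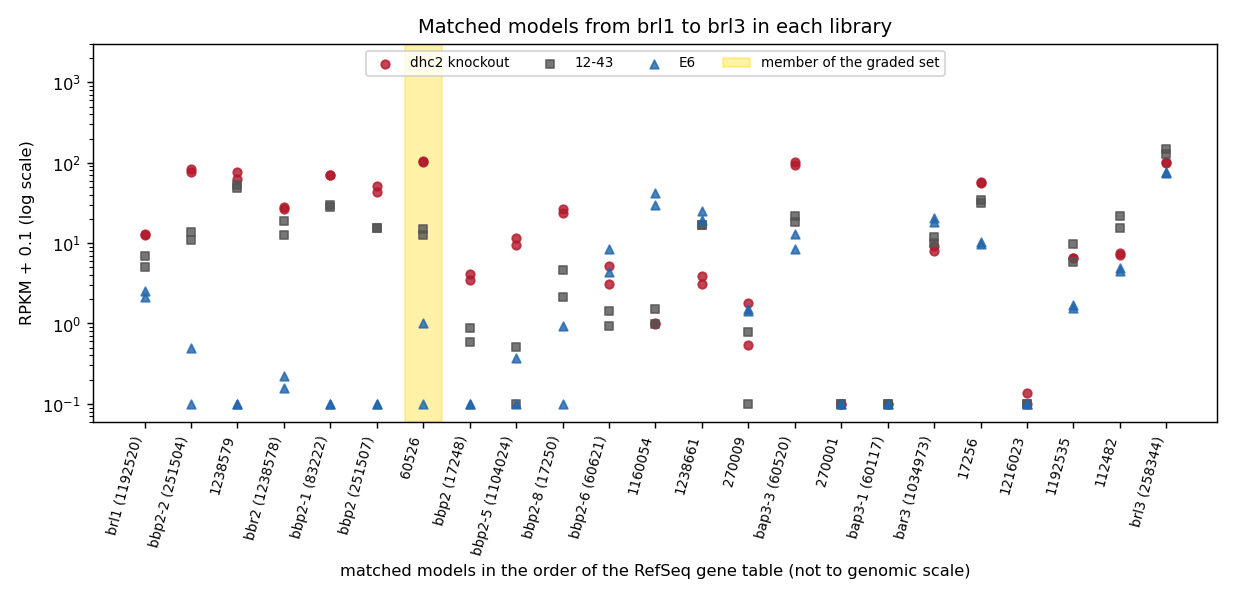
RPKM plus 0.1 (log scale) in each library for the models matched to the gene table between the receptor-like genes brl1 and brl3, in table order and not to genomic scale; circles are the knockout, squares 12-43 and triangles E6. The band marks model 60526, where the knockout is at 105.8 and 103.4 RPKM, 12-43 at 14.98 and 12.7 RPKM and E6 at 0 and 0.899 RPKM.

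Of the 13 tested genes with a B mating-type symbol, 8 (61.5%) had 12-43 strictly between the knockout above and E6 below, with no overlap of libraries, and 1 (7.69%), bar3, had the reverse order. Among all 12484 tested models these shares were 10.8% and 8.24%. In the fit across all models (limma, adjusted p threshold 0.05) 10 of the 13 genes were higher and 1 was lower in the knockout than in 12-43, with a median log2 difference of 1.48. Of all tested models 28.1% were higher and 26.4% lower, with a median of -0.0013. In E6 against 12-43, 2 of the 13 were higher and 10 lower (median -1.11), against 31.2% higher and 28.1% lower of all tested models (median 0.02). Both comparisons share the 12-43 libraries, and under unscaled or upper-quartile-scaled RPKM the same numbers of the 13 were called each way. Other settings moved them: 9 were lower in E6 with the GAAGA listing as a covariate, and 2 lower in the knockout with voom on the recovered reads. Without any 1 library the medians were 1.28 to 1.64 for the knockout and -1.16 to -0.94 for E6. By its label E6 differs from 12-43 and the knockout at the B locus, and bbr2 had 1 and 3 reads in E6. For genes named for the second B specificity, lower expression and a differing or absent gene in E6 cannot be told apart. The 61.5% and the E6 medians include such genes. Also among the 13 are bar3 and bap3-3, and the 3 in their names stands in no labelled B locus.

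The 37 models in the order E6 over 12-43 over knockout, 0.253% of all models, reached higher levels. Their library values ran from 10.07 to 44855 RPKM in E6 (median 99.0), from 1.36 to 18547 RPKM in 12-43 (median 17.95) and from 0.146 to 3332 RPKM in the knockout (median 3.40). The median member was 3.21-fold higher in E6 than in 12-43 and 3.66-fold higher in 12-43 than in the knockout, with a median span of 15.4-fold. Taking group means plus 0.5 RPKM, it was at least 16-fold in 14 members and under 8-fold in 9. As folds of group means the step above 12-43 was the larger in 16 members and the step below it in 21, and 9 members had both steps at 4-fold or more. With 0.5 RPKM added to the means these counts were 19, 18 and 7. Together the 37 took up 2.05% and 2.01% of the reads in the E6 libraries, 0.601% and 0.731% in 12-43, and 0.142% and 0.139% in the knockout.

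Most of those reads belonged to model 82353, a short model of 288 nt. It was at 44855 and 41844 RPKM in E6, 14332 and 18547 RPKM in 12-43, and 3332 and 3210 RPKM in the knockout. It ranked 3 and 2 among all models in E6, 3 and 4 in 12-43 and 16 and 20 in the knockout, so that it was among the most abundant transcripts of every library while spanning 13.3-fold. Without it the other 36 members took 0.762% and 0.801% of the E6 reads and 0.0458% and 0.0467% of the knockout reads. The order of groups in these shares was fixed by the choice of members.

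The hydrophobin SC3, which coats aerial hyphae, had the same order of strains but was no member. It was at 21811 and 23009 RPKM in E6, 10907 and 13868 RPKM in 12-43, and 4842 and 4704 RPKM in the knockout, with E6 1.81-fold over 12-43 and 12-43 2.60-fold over the knockout. Of the 9 tested hydrophobins it was the only one with 12-43 strictly between the others in either order, and none had the order with the knockout on top. The shares over all tested models were 8.24% in the order of SC3 and 10.8% in the other. In the fit across all models 7 of the 9 were lower and none was higher in the knockout than in 12-43 (median log2 difference -1.52). Of all tested models 26.4% were lower and 28.1% higher, with a median of -0.0013. In E6 6 of the 9 were lower and 1 higher (median -1.84), against 28.1% lower and 31.2% higher of all tested models (median 0.02). With the GAAGA listing as a covariate 5 were lower in E6, and with replicate number as a block 2 were higher. The knockout counts stayed the same in both settings. Without any 1 library the medians were -1.76 to -1.28 for the knockout and -1.90 to -1.57 for E6.

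The next members by E6 level were model 1115558 and model 1213381, both short. Model 1115558 (252 nt) was at 3455 and 3188 RPKM in E6, 1184 and 1263 RPKM in 12-43 and 421.6 and 484.5 RPKM in the knockout, with near-equal steps of 2.71-fold and 2.70-fold. Model 1213381 (450 nt) was at 2828 and 2681 RPKM in E6, 273.4 and 362.1 RPKM in 12-43 and 19.2 and 20.8 RPKM in the knockout. Its steps of 8.67-fold and 15.9-fold were both far inside the limit, and it moved from rank 31 and 37 in E6 to rank 6536 and 6348 in the knockout.

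Several members had a much larger step below 12-43 than above it. Model 1174659 was at 674.7 and 1033 RPKM in E6, 251.4 and 141.4 RPKM in 12-43, and 4.29 and 3.41 RPKM in the knockout. Model 1191755 was at 802.7 and 822.3, 253.4 and 261.4, and 10.02 and 9.80 RPKM in the same groups. The lower step was 51.0-fold for the first and 26.0-fold for the second, on 47 and 36 and on 70 and 66 reads in the knockout libraries. Model 1103821 had the largest fold of the lower step in this set, with 27.2 and 51.0 RPKM in 12-43 and 0.648 and 0.538 RPKM (15 and 12 reads) in the knockout, 65.9-fold lower, while E6 at 109.9 and 113.6 RPKM was 2.86-fold over 12-43.

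The reverse shape was that of model 1039338, where the larger step lay between E6 and 12-43. It was at 479.4 and 364.4 RPKM in E6, 9.03 and 13.05 RPKM in 12-43, and 2.60 and 1.62 RPKM in the knockout. E6 was 38.2-fold over 12-43, the largest step above 12-43 in either set, and 12-43 was 5.24-fold over the knockout. Model 1103294 was alike, with 221.0 and 215.4 RPKM in E6, 13.8 and 19.6 RPKM in 12-43 and 3.15 and 4.90 RPKM in the knockout. Model 66483 had large steps of near-equal size, 7.55-fold and 7.14-fold, with means ± SD over 2 libraries of 485 ± 127 RPKM (E6), 64.2 ± 15.1 RPKM (12-43) and 8.99 ± 1.03 RPKM (knockout).

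In 5 of the 37 members, and in none of the other 40, the 12-43 libraries themselves differed by 2-fold or more, each time with replicate 2 the higher. In model 1192766 they were at 1.36 and 14.2 RPKM (10 and 65 reads), against 80.1 and 68.0 RPKM in E6 and 0.267 and 0.553 RPKM (2 and 4 reads) in the knockout. In model 1153282 they were at 10.2 and 66.3 RPKM, against 136.6 and 163.6 RPKM in E6 and 1.13 and 1.38 RPKM in the knockout. Replicate 2 was thus 10.4-fold and 6.49-fold over replicate 1, and the 12-43 means of 7.78 ± 9.08 and 38.3 ± 39.7 RPKM (SD, n = 2) have SDs about as large as the means or larger. The other 3 were model 1154533 at 4.09 and 8.73 RPKM, model 1216302 at 5.62 and 11.8 RPKM and model 1085836 at 2.01 and 4.15 RPKM in 12-43. For these 5 the 12-43 level is poorly known, and the gap between its libraries does not bound it.

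The same 12-43 library, replicate 2, was the higher for 7 of the 9 tested hydrophobins in the values as deposited, none of them a member. Over all tested models it was the higher in 37.5% as deposited and in 50.5% after trimmed-mean scaling. SC4, known from fruiting bodies, was at 251.2 and 509.4 RPKM in 12-43 replicates 1 and 2, Hyd9 at 18.5 and 36.5 RPKM and SC1 at 29.8 and 57.7 RPKM. Replicate 1 was the higher for HYD2, at 66.9 and 47.9 RPKM, and for Hyd1, at 7.01 and 5.62 RPKM. Over the 37 members the median absolute log2 difference between the 12-43 libraries was 0.31, against 0.15 between the E6 libraries and 0.15 between the knockout libraries. Over the 40 members highest in the knockout it was 0.12 in 12-43, and over all tested models 0.18.

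Which 12-43 library was the higher did not enter the choice of members. In the values as deposited replicate 1 was the higher in 35 of the 40 members highest in the knockout (87.5%), against 61.7% of all tested models and 71.8% of the 1314 other tested models with the same order of strains and no overlap. Replicate 2 was the higher in 26 of the 37 members highest in E6 (70.3%), against 37.5% of all tested models. Of the 992 others in that order, 536 had replicate 2 higher. After scaling by trimmed means, replicate 1 was the higher in 23 of the 40 (57.5%) against 48.7% of all tested models and 55.3% of the others in that order, and replicate 2 in 28 of the 37 (75.7%) against 50.5% and 71.8%. After trimmed-mean scaling, the shares in the members thus lay close to those of the other models with the same order of strains. Upper-quartile scaling left replicate 1 the higher in 32 of the 40 and replicate 2 in 28 of the 37. No shares of the other models are given for that scaling.

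In both sets the 12-43 library that shares the GAAGA listing with the knockout lay more often on the knockout's side, and the one that shares its absence with E6 on that of E6. The part of this library split in the graded order was not tested. Steps of at least 2-fold against each 12-43 library were fixed by the choice of members, so the values within the split do not bear on it. For the 40 members the knockout was at a median log2 of 1.53 over 12-43 replicate 1 and 1.66 over replicate 2, and E6 was at -1.55 against replicate 2 and -1.59 against replicate 1. For the 37 members E6 was at 1.66 over replicate 2 and 1.74 over replicate 1, and the knockout at -1.57 against replicate 1 and -1.69 against replicate 2.

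**Figure D4:**
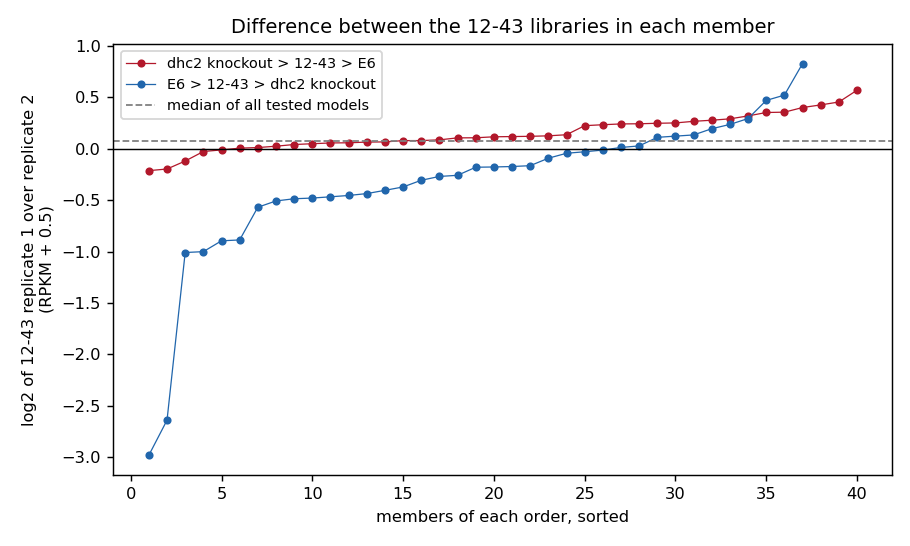
Log2 of 12-43 replicate 1 over replicate 2 (RPKM plus 0.5, as deposited) for each member, sorted within each set; the solid line marks equal libraries and the dashed line the median of all tested models. In the set highest in the knockout 35 of 40 points lie above 0, and in the set highest in E6 26 of 37 lie below it, some far below.

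The sets differed in coding length, which the choice did not use beyond the scaling of RPKM. The median was 1150.5 nt in the 40 members highest in the knockout, 945 nt in the 37 highest in E6 and 1137 nt in all tested models. Models under 600 nt made up 5 of the 40 (12.5%) and 14 of the 37 (37.8%), against 19.4% of all tested models and 20.7% of those with at least 10 RPKM in both E6 libraries. The 3 most abundant members of the set highest in E6, models 82353, 1115558 and 1213381, are all among its short ones. No chance test was made of these shares.

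**Figure D5:**
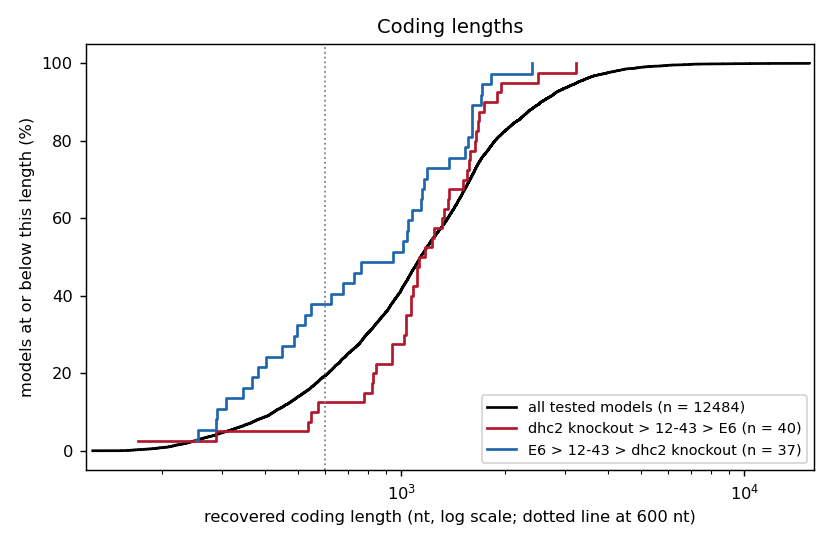
Cumulative share of models (y axis, percent) by coding length in nt (x axis, log scale) for all tested models and both sets of members, with a dotted line at 600 nt. The curve of the set highest in E6 lies to the left of the others at the short end, with 37.8% of its models under 600 nt.

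The 19 members with a locus tag were scattered over the gene table. The closest pair, models 233410 and 1188937, both highest in the knockout, had 33 places between their positions in the table, and no members were direct neighbours. Model 233410 was at 59.5 and 60.4 RPKM in the knockout, 12.3 and 11.6 RPKM in 12-43 and 3.35 and 3.07 RPKM in E6. For the other 58 members no place is given.

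Among the other gene lists with symbols, 2 of 8 tested regulators of fruiting-body formation had the order knockout over 12-43 over E6 without overlap, the blue-light receptor gene WC1 and Bri1. The gene of its partner, WC2, had the reverse order. Over all tested models 10.8% and 8.24% had these orders. The steps were small: WC1 was 1.23-fold higher in the knockout than in 12-43 and 1.66-fold higher in 12-43 than in E6, and WC2 was 1.15-fold higher in E6 than in 12-43 and 1.27-fold higher in 12-43 than in the knockout. Bri1 was 1.11-fold higher in the knockout than in 12-43 and 1.17-fold higher in 12-43 than in E6. Its nearest libraries all but touched, at 30.92 against 30.89 RPKM and 26.3 against 25.8 RPKM, and it was called in neither comparison (adjusted p from limma 0.287 and 0.38). In the fit across all models none of the 8 was higher and 1 was lower in the knockout, with a median log2 difference of 0.05, against 28.1% higher and 26.4% lower of all tested models. In E6 1 was higher and 4 were lower (median -0.36), against 31.2% and 28.1%. Both single calls were of WC2. Its call in the knockout missed the threshold in 7 of 14 alternatives (adjusted p from limma 0.0202 to 0.188 over all 14): unscaled RPKM, the replicate block, and without 12-43 replicate 1 or any 1 library of the knockout or E6. Its call in E6 missed it in 8 of 14 (0.0239 to 0.207): unscaled RPKM, upper-quartile scaling, the replicate block, and without 12-43 replicate 2 or any 1 library of the knockout or E6. Neither of the 2 laccase genes had 12-43 in between. In the same fit Lcc1 was higher in the knockout and in E6 than in 12-43, beside the same shares over all tested models. It had 10 and 6 reads in 12-43, 21 and 25 in the knockout and 86 and 135 in E6. Lcc2 was called in neither comparison.

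Outside the members, the models most alike in pattern were found by Pearson's r of log2 values over the 6 libraries with the members' mean pattern. Among 8120 candidates with at least 10 RPKM in both knockout libraries the highest were model 1309466 (r = 0.9994), model 1102569 (0.999) and model 269952 (0.999). Model 1309466 was at 23.2 and 22.6 RPKM in the knockout, 15.9 and 14.5 RPKM in 12-43 and 9.05 and 9.35 RPKM in E6, the same grading in smaller steps. Among 7763 candidates for the reverse order they were model 1272418 (0.999), model 1125215 (0.998) and model 1171929 (0.998). Model 1272418 was at 207.8 and 208.2 RPKM in E6, 159.2 and 161.6 RPKM in 12-43 and 121.0 and 117.7 RPKM in the knockout. The members' own median r was 0.992 and 0.991, and 40 and 39 candidates outside the members were at or above it.

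At the limit of the choice, model 1111342 was just inside the set highest in the knockout, with a smaller step of 2.01-fold, and model 1143271 just outside it at 1.97-fold. Model 1143271 was at 147.7 and 144.6 RPKM in the knockout, 58.0 and 49.4 RPKM in 12-43, and 23.5 and 25.04 RPKM in E6. In the set highest in E6, model 1337007 was just inside at 2.00-fold and model 1193310 just outside at 1.97-fold. Model 1193310 was at 102.8 and 98.9 RPKM in E6, 28.9 and 31.6 RPKM in 12-43 and 14.2 and 14.7 RPKM in the knockout. Models on either side of the limit thus differed little.

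In the order E6 over 12-43 over knockout 12 further models met the steps between libraries but had group means plus 0.5 RPKM within 2-fold. All 12 were without a read in the knockout and had at most 4 reads in any 12-43 library, against 11.2 to 74.0 RPKM in E6, so that 12-43 and the knockout could not be told apart at this depth.

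In the fit across all models all 40 members of one set and all 37 of the other were called at each step, in the direction that the choice fixed. In models 1192766 and 1153282, whose 12-43 libraries differ most, steps missed the threshold in some alternatives, among them without either E6 replicate, with adjusted p from limma of 0.0527 to 0.136. The shares of tested models called higher and lower were 28.1% and 26.4% for the knockout against 12-43, 31.2% and 28.1% for E6 against 12-43, and 31.2% and 31.6% for the knockout against E6. With the GAAGA listing as a covariate the calls of the last comparison went from 7832 to 4772. In that fit only a single 12-43 library on each side of the listing links the knockout and E6. The same rule with another strain in the middle gave like numbers of models. With the knockout between the wild types there were 64, and with E6 between 12-43 and the knockout there were 87, against 77 with 12-43 in the middle. These counts share all libraries and were not tested against each other.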

How the data were processed

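For each library the authors deposited RPKM per gene model; a FastQC quality report of the raw reads stands in the same file. The labels' protocols give mRNA-based single reads of 50 bases with adaptors removed, while TopHat, DESeq and edgeR appear in the submitters' processing notes without a stated use. How reads were aligned and counted, whether strand was used, and which genome build and annotation served, is not given in the sources used here.

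Low RPKM were whole multiples of a step, which gave the reads, library denominators and coding lengths (multiples of 3). All 13715 models with a value came out whole within 0.005 reads. Intervals and limits cover counting error only.

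Across all models, log2(RPKM + 0.5) was fitted with limma 3.58.1 in R 4.3.3 after trimmed-mean scaling (30% of M and 5% of A trimmed), with trended variance, all 6 libraries and group as the term. Models entered with 0.744 CPM in 2 libraries and 15 reads in all, which kept 12484. P-values were adjusted by Benjamini-Hochberg. With 2 libraries a group they measure only the spread between libraries, which may be technical. The reads, the denominators and the fit were tested on simulated data.

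Identifiers were matched by locus tag to the RefSeq table of Schco3, for names and neighbours only: 3635 of 14652 matched, 2019 by the current and 1616 by the older tag. The table holds no product names, so lists were formed from symbols alone. The members, lists and tests were chosen with earlier results of these data known. Where a set held over 30 models, those named were the ones with the largest smaller step, the highest level or a place at the limit, and further models of a stated shape were chosen after their values were seen. The comparison of steps as plain folds was added after seeing the data. Alternatives are given in the closing section.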

Additional observations from a re-analysis of the deposited data

How the results depend on the processing

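The counts of members followed the limits chosen. In the order knockout over 12-43 over E6 the count of 40 became 128 with 1.5-fold steps and 8 with 3-fold steps, and in the reverse order 37 became 90 and 7. Without 1 library at a time the counts were 41 to 65 and 39 to 53, since fewer values then have to clear each step. Without 12-43 replicate 1 or 2 the first was 65 or 62, which holds 39 or 40 of the 40 members. Scaling by trimmed means gave 38 and 42, and by the upper quartile 36 and 43, while 5 or 20 RPKM gave 44 or 35 and 41 or 29. Without the drop on group means they were 40 and 49. After trimmed-mean scaling, a setting added after seeing the data, 12-43 replicate 1 was the higher in 23 of the 40 in place of 35. Upper-quartile scaling, also added then, gave 32.

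The replicate numbers pair no samples in the labels, and the differences between replicates 1 and 2 did not correlate between groups (r = 0.00286, 0.0254 and -0.00124). With the replicate block limma called 6580, 7221 and 7650 models, against 6805, 7403 and 7832, for the knockout against 12-43, E6 against 12-43 and the knockout against E6. With the GAAGA listing as a covariate the last fell to 4772. That fit links the knockout and E6 only through a single 12-43 library on each side of the listing, which widens its error. The cause of the fall was not tested. Leave-one-out counts were 4837 to 6597, 6045 to 7179 and 5890 to 8216 (the lone library is assumed to vary like the others). Of the members' 154 steps none reversed in 14 settings. The choice had put all libraries of neighbouring groups at least 2-fold apart, so this result was fixed beforehand and is no test. In model 1192766 both steps and in model 1153282 the step to E6 missed the threshold in some of the settings. Models with few reads in the lowest group are limited by depth.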
